A study of Homo sapiens with 8 samples.

Results

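Clusters of unconverted cytosines are short stretches of the nuclear genome in which several neighbouring cytosines on 1 strand were still read as C after bisulfite treatment of RNA. In the poly(A) RNA of HEK293 cells, an established human embryonic kidney cell line, 6649767 nuclear cytosines were read at least 20 times and 18690 of them (0.281%) kept a C in at least 20% of their reads. Joining those on the same strand that lay at most 20 nt apart gave 4114 groups of any size, and the 1706 groups with at least 5 cytosines are the clusters described here. The clusters held 14195 cytosines, which is 75.9% of all unconverted cytosines but 0.213% of the covered ones. The number of methylated and unmethylated reads at each cytosine chose the clusters, so their levels and sizes are given as a description, with no test.

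The design text of the series gives its aim as finding the RNA targets of NSun3 and NSun6, which are cytosine methyltransferases. It used miCLIP, in which an enzyme locked onto its target cytosine is crosslinked and pulled down and reverse transcription stops beside the bound base, and bisulfite RNA sequencing. For miCLIP, cells were transfected with myc-tagged NSun3 or NSun6 constructs, harvested after 24 h and precipitated with an antibody to the tag, with 3 libraries per enzyme. Per the study's methods the NSun3 construct lacked the cysteine that releases the methylated RNA. Both groups rest on transfected, tagged enzyme and neither is an untagged control. Replicates 1, 2 and 3 of NSun3 had 138921, 53024 and 47352 truncation reads, and those of NSun6 had 323935, 467586 and 305392. The 2 bisulfite samples of poly(A) RNA were deposited as 1 table with 1563381557 unmethylated and 5015123 methylated nuclear reads summed over cytosines, so no value below from bisulfite sequencing has a replicate error. Of the markers examined, VIM, KRT8, KRT18 and PAX2, which HEK293 cells express, were covered in this table, whereas PTPRC, ALB and HBB of blood, liver and red cells were not covered at 5 or more exonic cytosines.

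Bisulfite deaminates cytosine to uracil, which is read as T, whereas 5-methylcytosine is read as C. The reaction needs single-stranded RNA, so a cytosine held in a stable helix can also be read as C without carrying a methyl group. Alu elements, the most abundant repeats of the human genome, are derived from 7SL, the RNA of the signal recognition particle, and an RNA with a pair of Alu elements in opposite orientations can fold into a long duplex.

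The clusters fell into 4 kinds by their level and their similarity to 7SL RNA. At the upper end, 53 clusters were nearly complete, with at least 90% of reads unconverted, a median level of 99.8%, and hardly any guanine. Of the other 1653, called partial, 908 overlapped a stretch similar to 7SL, as Alu elements do, 352 lay within 300 nt of such a stretch, and 393 had none within 300 nt. The last set held most clusters of coding sequence and 5′ UTRs, and 87.9% of its unconverted cytosines were paired in the predicted fold of the RNA.

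The first 2 sequences below are the 2 clusters with the most cytosines, and they show the lack of G of the nearly complete kind. At 56.2% (HMGN5) and 49.2% (ENSG00000274422) both are richer in U than the median of that kind, 34.7%. Both are poorer in A, at 7.36% and 22.5% against a median of 30.6%. The other 4 were chosen after their values were seen, to show partial clusters in coding sequence and a 5′ UTR that lie in predicted hairpins. Each is written 5′ to 3′ on the strand of the cluster, from hg19, and capitals mark the cytosines that belong to a cluster. The cluster opposite an exon of HMGN5, a nucleosome-binding protein, spans chrX:80370204-80370502 on the plus strand, and that opposite an exon of the gene ENSG00000274422 spans chr22:22639553-22639810 on the plus strand. The cluster in the coding sequence of IRAK1, a kinase of the interleukin-1 receptor pathway, spans chrX:153279555-153279593 on the minus strand. The sequence of H1-10, a linker histone, is chr3:129034150-129034197 on the minus strand, coding, and holds the cluster with some flank. The sequence of JUND, a subunit of the AP-1 transcription factor, is chr19:18391728-18391827 on the minus strand, coding, and holds a pair of clusters. The stretch of the 5′ UTR of CENPB, which binds centromeric DNA, is chr20:3767159-3767188 on the minus strand. It holds 11 of the 17 cytosines of the cluster, which runs on to position 3767139.
HMGN5, other strand: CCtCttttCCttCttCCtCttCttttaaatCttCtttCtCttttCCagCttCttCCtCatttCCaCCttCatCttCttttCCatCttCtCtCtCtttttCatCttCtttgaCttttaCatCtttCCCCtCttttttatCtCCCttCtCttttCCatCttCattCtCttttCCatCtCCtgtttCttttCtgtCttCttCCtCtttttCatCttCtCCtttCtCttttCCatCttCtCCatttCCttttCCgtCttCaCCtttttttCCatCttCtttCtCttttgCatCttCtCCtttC
ENSG00000274422, other strand: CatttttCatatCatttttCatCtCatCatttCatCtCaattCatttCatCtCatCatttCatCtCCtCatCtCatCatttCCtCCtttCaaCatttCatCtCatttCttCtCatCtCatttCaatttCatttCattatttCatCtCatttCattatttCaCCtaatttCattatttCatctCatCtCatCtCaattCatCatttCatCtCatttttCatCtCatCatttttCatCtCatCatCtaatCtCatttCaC
IRAK1: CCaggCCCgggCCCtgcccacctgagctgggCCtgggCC
H1-10: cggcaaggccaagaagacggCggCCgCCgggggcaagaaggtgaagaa
JUND: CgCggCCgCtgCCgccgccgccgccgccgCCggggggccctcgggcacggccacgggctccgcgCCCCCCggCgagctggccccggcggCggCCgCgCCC
CENPB: CCCCCCgCCCCggggCggcggcggcggcgc

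Most clusters were short and only partly unconverted. A cluster held a median of 7 cytosines (range 5 to 103) and spanned a median of 19 nt (range 5 to 299), and 34 clusters held at least 20 cytosines. The median level, the share of a cluster's reads that were unconverted, was 34.3%, with quartiles at 27.0% and 46.4%. By level, 636 clusters lay between 20% and 30%, 463 between 30% and 40%, 275 between 40% and 50% and 161 between 50% and 60%. The count then fell to 78, 25 and 15 in the next 3 steps of 10 percentage points and rose to 53 above 90%, so the nearly complete clusters stood apart from the rest of the distribution.

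**Figure D1:**
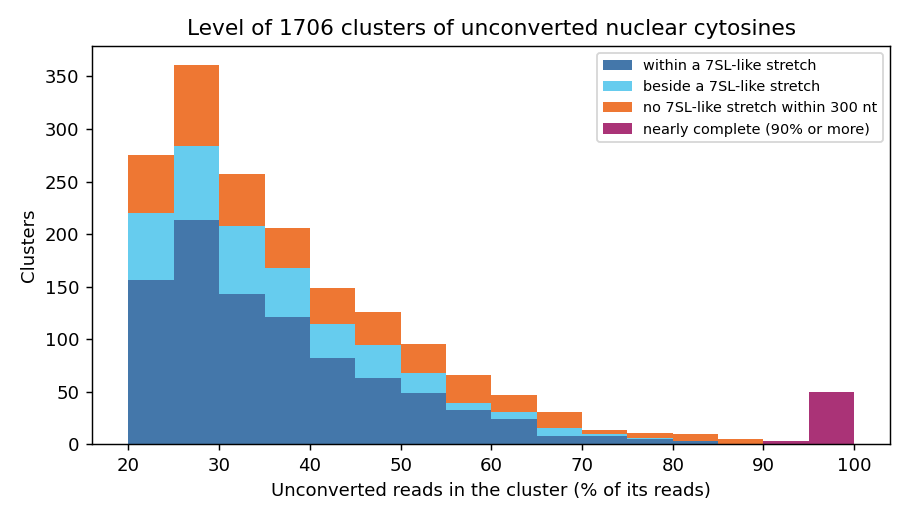
Number of clusters (vertical axis) by the share of their reads that were unconverted (horizontal axis, percent, in steps of 5 points), coloured by kind. The 3 partial kinds decline from the step at 25% upwards, and the 53 nearly complete clusters form a separate group at the right end.

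Within most clusters every readable cytosine passed the 20% limit. In 1209 clusters (70.9%) each covered cytosine of the span was itself past 20%, and the highest and lowest level in a cluster differed by a median of 14.0 percentage points. Outside the span the level was low, in part by the rule, since a covered cytosine past 20% within 20 nt would have been joined to the cluster. At 6 to 50 nt from the cluster the median level was 1.66%, and of the 1278 clusters with covered cytosines on both sides 797 (62.4%) were below 5% on both. Over all covered cytosines the unconverted share was 0.159% of reads, or 0.120% without the clusters, 91.1% of covered cytosines had no unconverted read, and the clusters held 24.6% of the unconverted reads.

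The threshold cut through a continuous distribution. There were 7466 covered cytosines between 15% and 20% and 4586 between 20% and 25%, so a lower limit admits many more. The 290 groups of 4 cytosines, just outside the rule, had a median level of 28.7%, and the 335 clusters of 5, just inside it, had 28.8%. The depth behind a level was modest: the median clustered cytosine had 34 reads (quartiles 25 and 57, highest 8660), against 55 for all covered cytosines. Single clusters are therefore given with a 95% Clopper-Pearson interval at the median read number of their cytosines, which covers counting error only.

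The bases of the clusters were skewed to C, in part by the rule. It keeps only groups of several cytosines close together, and each cluster starts and ends on a C. The median cluster was 43.8% C, 23.1% G, 15.8% A and 16.7% U. A clustered cytosine was followed by another C in 38.7% of cases, against 30.2% of covered cytosines below the threshold. For unconverted cytosines outside clusters, which the rule left out, the share was 26.3%. How much of the skew the rule itself gives was not tested. CTCCA, in which a cytosine is followed by T, C, C and A, began at 1.06% of clustered cytosines, 1.13% of unconverted cytosines outside clusters and 0.689% of covered cytosines below the threshold. Of the 151 cases in clusters, 121 lay in clusters within a 7SL-like stretch (1.64% of their cytosines), and the share was 0.360% in clusters beside one and 0.390% in those with none. The clusters were spread evenly over the strands of the genome, with 872 of 1706 on the plus strand.

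Introns and 3′ UTRs held most of the clusters. Introns held 686 (40.2%) although they held 12.6% of the covered cytosines, and 3′ UTRs held 442 (25.9%), close to their 27.7% of covered cytosines. Coding sequence held 42.0% of covered cytosines and 170 clusters (9.96%), and 5′ UTRs held 82. Of the covered cytosines of coding sequence 0.0428% lay in clusters, against 0.193% in 3′ UTRs, 0.216% in 5′ UTRs, 0.650% in introns and 0.835% between genes. The strand opposite to an annotated exon had 33 clusters with 2.95% of its covered cytosines, and that opposite to an intron had 48 with 0.742%. Non-coding RNA exons had 43 clusters, other exons of protein-coding genes 83 and pseudogene exons 10.

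**Figure D2:**
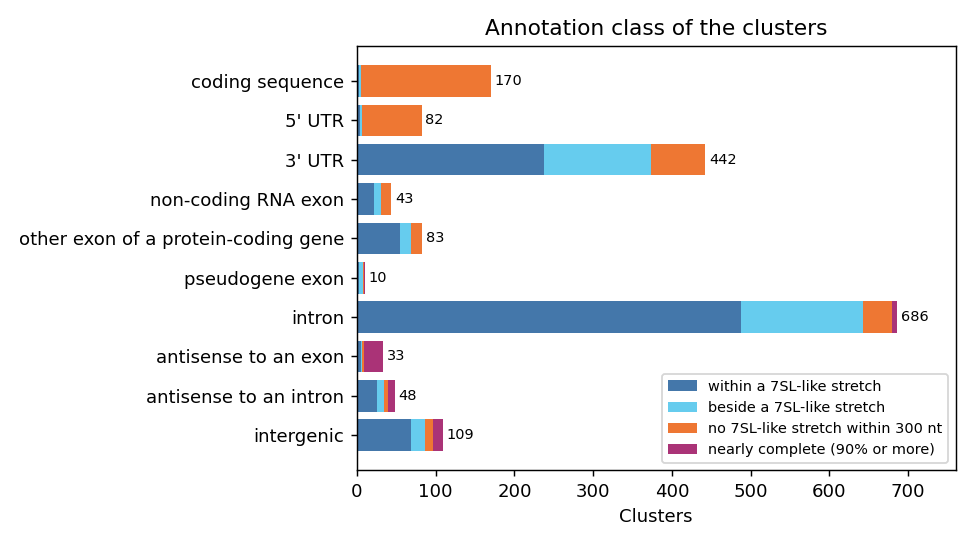
Number of clusters (horizontal axis) in each annotation class (vertical axis, GENCODE on hg19), coloured by kind. The 7SL-like kinds fill introns and 3′ UTRs, the clusters with no 7SL-like stretch within 300 nt fill coding sequence and 5′ UTRs, and 24 of the 53 nearly complete clusters lie opposite to an exon.

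The 7SL-like clusters were the most numerous kind. Of the 216791 windows of 200 nt with at least 10 covered cytosines, 6.88% held a stretch similar to RN7SL2, the 7SL gene used for the comparison, whereas 60.7% of the 1692 windows with a clustered cytosine did. The 908 partial clusters within such a stretch had a median level of 32.9%, with a highest of 84.9%, a median span of 19 nt and 22.2% G. By class, 487 were in introns, 237 in 3′ UTRs, 68 between genes and 3 in coding sequence. The 352 beside such a stretch had a median level of 33.5%, with 155 in introns and 136 in 3′ UTRs.

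A second copy of the repeat in the opposite orientation was common nearby. Among the 909 clusters with a 7SL match within 10 nt of their centre, 71.9% had an opposite copy within 1000 nt. The 7417 covered windows with no clustered cytosine and a match within 10 nt of their centre had one in 34.3% of cases. In introns the shares were 74.8% and 39.4%, in 3′ UTRs 69.2% and 27.6%, and between genes 72.1% and 44.5%. With a reach of 500 nt they were 40.7% and 16.4%, and with 2000 nt 89.9% and 58.6%. Of the 908 partial clusters within a 7SL-like stretch, 650 had such a copy by the same measure. When these were folded together with the nearest one, over a median of 619 nt, 80% of the clustered cytosines were paired and 39.3% were paired to a base of the copy. The other covered cytosines of the same windows were at 69.1% and 20%, and those of 2547 covered windows without clusters at 70.9% and 17.9%. The share paired to the copy was higher for the clustered cytosines in 281 of 646 clusters and lower in 121. The clustered cytosines lie in or at the 7SL-like stretch, whereas the cytosines compared with them come from whole windows. Those outside the stretch need not have a complement in the copy, so the gap in pairing to the copy is not separate from position. The part of position was not tested. The RNA itself ran in the complementary orientation in 56.7% of the clusters and in 30.5% of the windows.

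Clustered cytosines were not spread evenly along the repeat. For RNA complementary to 7SL, 11.5% of the covered cytosines that aligned to base 44 of RN7SL2 (307 of 2674) lay in clusters, and the share was 2.55% at the median base. For RNA in the 7SL orientation the highest share was 4.53%, at base 267, and the median base had 0.650%. These positions come from many repeats of similar sequence, in which short reads can be placed wrongly, and the part of this in the values was not tested.

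**Figure D3:**
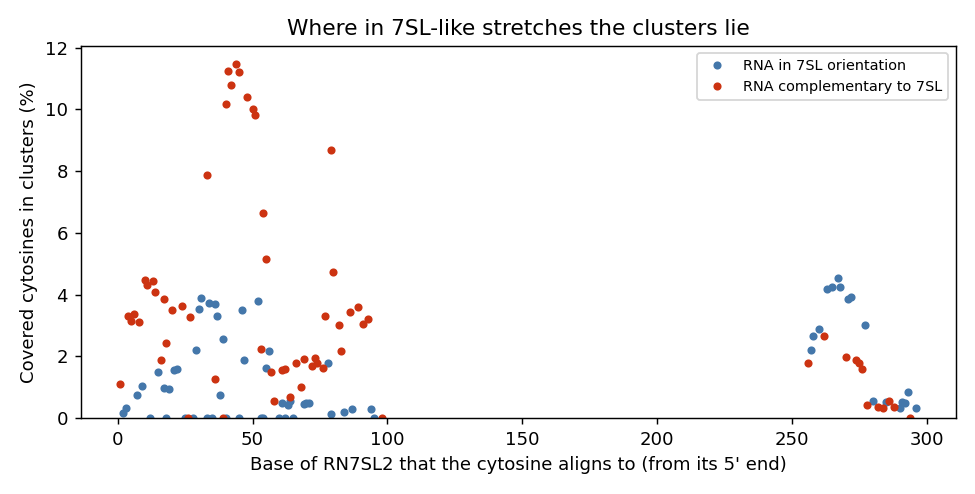
Share of covered cytosines that lie in clusters (vertical axis, percent) by the base of RN7SL2 they align to (horizontal axis, counted from its 5′ end), for RNA in the 7SL orientation and complementary to it. Only bases with at least 50 covered cytosines are drawn, and the complementary RNA peaks at bases 40 to 51.

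The 7SL-like clusters included long stretches in named genes, chosen here from among those with the most cytosines in their class after the values were seen. In an intron of MND1, a meiotic recombination factor, 21 cytosines were unconverted at 46.9% (interval 32.9% to 63.1%). In the 3′ UTR of NICN1 a cluster of 21 cytosines had 42.5% (28.8% to 57.8%), and a cluster of 25 beside the repeat had 40.5% (24.8% to 57.9%). NHSL1-AS1, an antisense RNA, had 25 cytosines at 50.1% (29.9% to 70.1%). NUP50-DT, a divergent transcript, had 21 at 81.5% (63.1% to 93.9%). The intervals of the first 4 overlap, so their levels cannot be ranked at this depth.

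Clusters with no 7SL-like stretch within 300 nt were of another composition and place. Of the 393, 165 were in coding sequence, 76 in 5′ UTRs, 69 in 3′ UTRs and 37 in introns. Their median span was 13 nt, with 56.5% C and 28.6% G, in windows of 70% GC. A clustered cytosine was followed by C in 57.1% of cases and by G in 22.8%. Their flanks had a median level of 0.234%, and 266 of the 345 with both flanks covered (77.1%) were below 5% on both sides.

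The cytosines of these clusters were mostly paired in predicted folds. RNAfold was run on the 200 nt centred on each cluster, and 87.9% of the clustered cytosines were paired, against 64.0% of the other covered cytosines of the same windows. In 336 of the 393 clusters (85.5%) the share paired was higher among the clustered cytosines, and in 55 it was lower. The others lie nearer the window ends, where partners can be cut off, and the part of position was not tested. With windows of 100 and 400 nt, 82.7% and 88.3% of clustered cytosines were paired, and 58.9% and 66.5% of the others. With 200 nt the clustered share was also the higher in the 4 classes examined, which hold most of these clusters. Paired shares were 90.8% and 64.7% in coding sequence (higher in 144 of 165 clusters), 89.8% and 66.4% in 5′ UTRs (67 of 76), 87.7% and 59.3% in 3′ UTRs (60 of 69), and 79.9% and 65.6% in introns (27 of 37).

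The covered windows without clusters give the background for these folds. In 215099 such windows 63.0% of covered cytosines were paired, and between 62.9% and 65.3% when windows were taken by GC content in steps of 10 points from 40% to 80%. In the same steps the clustered cytosines of the set with no 7SL-like stretch were paired in 76.4%, 78.9%, 92.0% and 91.7% of cases. The folding energy per nt was −0.48 kcal/mol at the median for this set and −0.29 for the background windows. Within windows of 70% to 80% GC the values were −0.52 and −0.47.

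In the 7SL-like kinds the paired shares of clustered cytosines were closer to the background than this, and in the nearly complete clusters they were far below it. In 7SL-like stretches 66.9% of clustered and 64.0% of other cytosines were paired, with 482 clusters higher and 397 lower of 904. Beside such stretches the shares were 71.3% and 63.5%, with 226 higher and 122 lower of 352. With windows of 400 nt the shares were 68.9% and 65.0% in 7SL-like stretches, and 72.4% and 65.5% beside them. How many of the opposite copies described above lie within a 200-nt window was not counted. The part of pairing between copies in these folds was not tested. In the nearly complete clusters 7.88% of 1180 clustered and 7.69% of only 65 other cytosines were paired. Their spans hold hardly any G for a C to pair with, so this low share is not separate from their composition. The 3484 unconverted cytosines outside clusters that could be placed in a window were paired in 71.3% of cases.

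**Figure D4:**
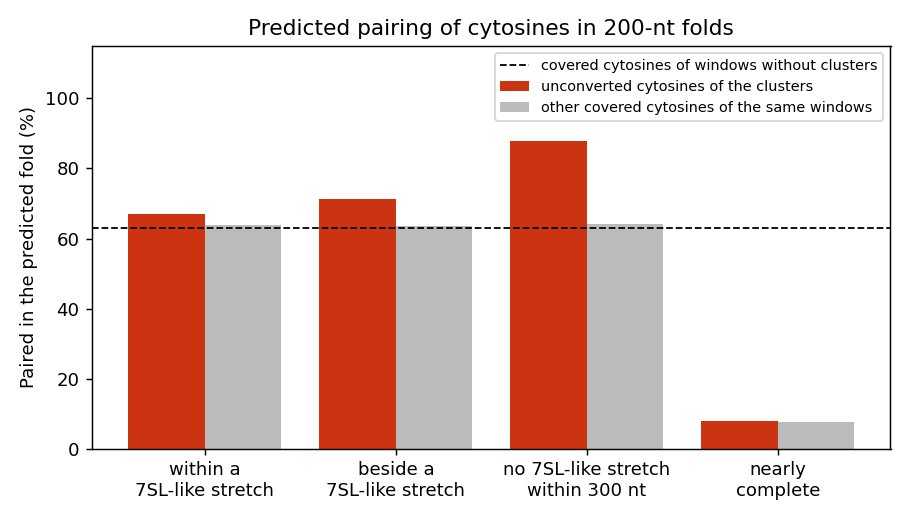
Share of cytosines paired in the predicted 200-nt fold (vertical axis, percent) for the unconverted cytosines of each kind of cluster and for the other covered cytosines of the same windows, with a dashed line for windows without clusters (63.0%). The widest gap between the paired bars is in the clusters with no 7SL-like stretch within 300 nt (87.9% and 64.0%).

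Well-covered examples show the pattern at single cytosines. In IRAK1, 12 cytosines read a median of 803.5 times had 59.2% unconverted reads (interval 55.7% to 62.6%), from 29.8% to 72.1% at single cytosines, and all 12 were paired in the predicted fold, as were 29 of the 55 others, although this cluster lies within 300 nt of a 7SL-like stretch. The flanks of this cluster were at 0.208%. H1-10 had 5 cytosines at 39.1% (37.5% to 40.7%) with a median of 3663 reads, 5 of 5 paired beside 39 of 54 others, and flanks at 0.178%. HNRNPAB, an RNA-binding protein of pre-mRNA, had 6 cytosines at 30.3% (27.9% to 32.8%) with 1395 reads, 6 of 6 paired beside 39 of 47 others, and flanks at 7.27%. Duplicates may remain among these reads and the spread between samples is unknown, so the 3 levels are not ranked.

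Some pairs of neighbouring clusters lay in both arms of predicted hairpins. In the coding sequence of JUND, clusters of 14 and 9 cytosines lay 33 nt apart at 64.2% and 67.1%, and 24 base pairs joined their spans in the predicted fold. The 23 clustered cytosines ran from 30.7% to 86.9%, while the 96 other covered cytosines around them ran from 0% to 18.3%, with 57 at 0. In the printed stretch of JUND alone, 18 of the 23 capital cytosines were paired in a fold of 38 pairs. The same fold also paired 20 of the 29 other covered cytosines of the stretch, and 17 of these 20 were below 1%. In this 1 predicted fold, paired cytosines thus had both high and low levels, and whether the RNA takes this fold was not tested. In an intron of ENTR1, an endosomal protein, clusters of 10 and 11 cytosines lay 150 nt apart within 7SL-like sequence, at 46.9% and 52.7%, joined by 27 pairs. The fold of that stretch paired 18 of the 21 clustered cytosines and 11 of the 13 others within it, of which 10 had no unconverted read. Of 56 other covered cytosines there, 22 had no unconverted read, but the highest reached 70%.

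**Figure D5:**
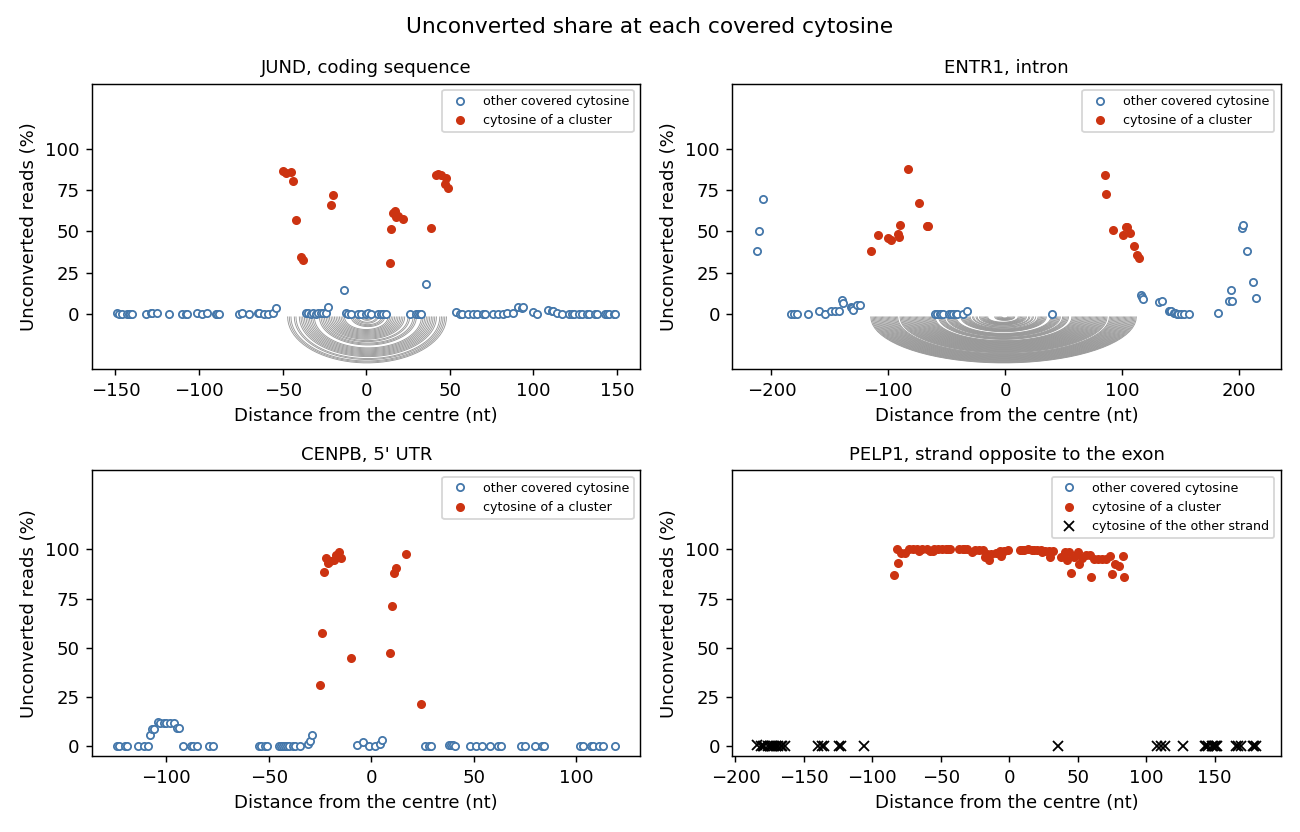
Unconverted reads (vertical axis, percent) at each covered cytosine by distance in nt from the centre of the region, in JUND, ENTR1, CENPB and PELP1, with filled points for cytosines of the clusters and open points for others. Arcs in the upper panels join bases paired in the predicted fold, and crosses in the PELP1 panel are cytosines of the other strand, at most 0.909%.

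Most other pairs did not share such a fold. Of 187 neighbouring clusters with a gap of at most 300 nt, 49 (26.2%) had at least 5 predicted pairs between them, and 14 of these 49 had no 7SL-like stretch within 300 nt of either. The levels within these 49 pairs differed by a median of 6.63 percentage points. KAT8, a histone acetyltransferase, had 39 pairs between intronic clusters at 30.1% and 41.4%. XIAP, an inhibitor of caspases, had 36 pairs between 3′ UTR clusters at 23.2% and 25.1%. RPL7L1 had 19 pairs between clusters at 46.5% and 46.4%, and C11orf58 had 15 between clusters at 49.0% and 48.5%.

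Single hairpins in 5′ UTRs and coding sequence had the same form. In the 5′ UTR of CENPB 17 cytosines were unconverted at 68.6% (interval 56.0% to 78.6%), from 21.5% to 98.6%, and 17 of 17 were paired, as were 39 of the 50 other covered cytosines of the 200-nt window. The 71 other covered cytosines around them reached at most 12.1%, and 43 were at 0. TMEM115, a Golgi protein, had 13 cytosines in its 5′ UTR at 41.5% (30.2% to 53.9%), with 13 of 13 paired and 35 of 63 others, and SLC6A8, the creatine transporter, had 13 in coding sequence at 33.1% (20.7% to 46.7%), with 13 of 13 paired and 39 of 58 others. These 3 were chosen after their values were seen.

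Not every cluster of this kind lay in a predicted helix. An intronic cluster of ASNS, asparagine synthetase, held 24 cytosines at 60% (interval 49.0% to 69.6%), of which 13 were paired. In the 3′ UTR of POU3F3, a neural transcription factor, 16 cytosines had 38.7% (25.1% to 54.6%), with 7 paired. Both were also chosen after their values were seen.

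The nearly complete clusters differed in composition from all partial kinds. All 53 held under 5% G, and 43 held none, against 79 of the 1653 partial clusters. Together their spans of 3886 nt held 1302 C and 22 G. Of the 215099 covered windows without clusters, 2 held under 5% G. The nearly complete clusters were longer, with a median of 18 cytosines and 53 nt, and their levels ranged from 92.1% to 100%. Their windows were predicted to be almost unfolded, with a median energy of −0.09 kcal/mol per nt. A predicted fold depends on composition, so this is not a trait separate from the lack of G.

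Most of them, 33 of 53, lay on the strand opposite to an annotated gene. Of the 53, 24 lay opposite an exon, 9 opposite an intron and 12 between genes, and 8 lay in the sense of a gene. Of the partial clusters, 1508 of 1653 were in the sense of a gene. The gene strand opposite to a run with almost no G has almost no C, and 10 cytosines in 5 of the 53 spans could be read there, with single levels of 0% to 0.770%. None of the 53 had covered cytosines on both sides. The authors aligned bisulfite reads without assuming a strand, and what part the assignment of strand to reads of such composition has in these levels was not tested. Among them 2 lay in nuclear copies of mitochondrial DNA, MTND4P12 and MTND6P4.

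Most of the named nearly complete clusters lay opposite an exon, and the others lay between genes. Opposite the exon of HMGN5, 103 cytosines had 97.4% unconverted reads (interval 88.7% to 99.6%), from 72% to 100%, while 6 cytosines on the gene strand had 0.380% of their summed reads with a median of 1313 reads. Opposite an exon of PELP1, a nuclear receptor coregulator, 71 cytosines had 98.3% (94.4% to 99.6%), and the 39 cytosines read on the gene strand around them reached at most 0.909%, with 35 at 0. Opposite PTMAP5, a prothymosin pseudogene, 52 cytosines had 99.9% (99.7% to 99.99%) with a median of 2425 reads, and 1 cytosine on the other strand had 0.0759% of 9225 reads. Opposite ENSG00000274422, clusters of 72, 60, 56 and 43 cytosines each had over 99.9%. SETP8 had 47 at 99.4%, and SETP14, SLC12A2-DT and ANP32B had 39, 30 and 20 at 100%. With 28 reads at the median, the 100% of SETP14 allows a level down to 87.7%.

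Several other clusters with the most reads had levels below the median of all clusters. In the 3′ UTR of EIF2S3, a subunit of the initiation factor that brings the initiator tRNA, 8 cytosines had 29.2% (interval 26.9% to 31.6%) with a median of 1481 reads, in a 7SL-like stretch with an opposite copy within 1000 nt. The pseudogene DUXAP10 had 8 at 24.9% (22.3% to 27.7%) with 1022.5 reads. A cluster opposite an intron of UNC45B had 7 cytosines at 27.5% (26.5% to 28.4%) with 8632 reads, but its sequence was 96.9% identical to ribosomal DNA over 163 nt, and whether these reads came from rRNA was not tested. This was not so of all deeply read clusters, as IRAK1 and H1-10 above show. In total, 3 clusters matched ribosomal DNA in this way, the others at 59.8% with 1167.5 reads and 34.0% with 72.

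Clusters were found in a small share of genes. Of 18327 genes with at least 5 covered exonic cytosines, 662 (3.61%) held a cluster in an exon on their strand, and 1205 of 19000 (6.34%) held one anywhere. Genes with an exonic cluster had a median of 529 covered cytosines against 218 for all, so coverage moved with the presence of a cluster, and its part was not tested. In 135 genes there were 2 or more exonic clusters and in 13 at least 4. GATD1 had 7, with 84 cytosines, and NICN1, ENSG00000283189, POU3F3, ICMT, MAVS and MED18 had 5 each. NICN1 and ENSG00000283189 each counted 67 clustered cytosines, and overlapping gene models count a cluster more than once.

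By gene list the counts were small, and they stand beside the 3.61% of all covered genes with an exonic cluster. The lists differ in coverage. Median covered exonic cytosines ran from 48 for structured non-coding RNAs to 543 for hnRNP and SR genes, against 218 for all genes. Of 10 covered structured non-coding RNAs only NEAT1, the scaffold of paraspeckles, held a cluster, with 6 cytosines at 33.6% (interval 29.7% to 37.6%) and 6 of 6 paired beside 35 of 42 others. Exonic clusters were found in 5 of 78 ribosomal protein genes (RPS15A, RPL22, RPL30, RPL37 and RPSA), which is 6.41%, in 2 of 35 translation factors (EIF2S3 and EIF4A1), and in 1 of 31 hnRNP and SR protein genes (HNRNPAB). In 2 of 17 selenoprotein genes there was one, and that of SELENOP, the plasma selenium carrier, held 10 coding cytosines at 26.5% (18.8% to 35.2%), 10 of 10 paired beside 18 of 31 others. In 2 of 25 cytoskeletal genes (FLNA and MARCKS) and 1 of 17 glycolytic genes there was one, and that of PFKL, phosphofructokinase of the liver type, held 7 cytosines at 24.1% (10.2% to 48.4%), 7 of 7 paired beside 21 of 23 others. MARCKS, an actin-binding membrane protein, had 6 at 22.8% (18.3% to 27.6%), 5 paired beside 54 of 69 others.

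No exonic cluster was found in 13 snoRNA host genes, 30 chaperone genes, 7 genes with an iron-responsive element, 9 RNA cytosine methyltransferase and reader genes or the 4 covered cell markers. Counted anywhere in the gene, clusters were found in 5 of 30 chaperone, 6 of 31 hnRNP and SR, 11 of 78 ribosomal protein and 4 of 35 translation factor genes, against 6.34% of all genes, and in 1 to 3 genes or none of each other list. These 4 lists were better covered, with medians of 441, 543, 392 and 469 covered exonic cytosines against 218 for all genes, and the part of coverage in their counts was not tested. HNRNPR had 17 intronic cytosines at 35.1% (interval 21.4% to 50.2%), CCT2, a chaperonin subunit, had 15 at 31.1% (13.9% to 54.9%), and NOP2, an rRNA cytosine methyltransferase, had 6 at 30.2% (12.6% to 51.1%). Those of HNRNPR, CCT2 and NOP2 were 7SL-like. With 4 to 78 covered genes in a list, a share near 3.61% leaves few or no genes. Exonic counts this small, up to the 5 of 78 ribosomal protein genes, are therefore not a result about a list.

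The miCLIP libraries, which the choice of clusters did not use, gave few reads there. Of the nuclear truncation reads, 3 of 86678, 0 of 34794 and 0 of 35813 started within 2 nt of a cluster in the NSun3 libraries, and 30 of 292982, 28 of 429947 and 31 of 277983 in the NSun6 libraries. Per nuclear read, the libraries of the 2 enzymes did not overlap. The shares were 0.00115% ± 0.00200 for NSun3 and 0.00930% ± 0.00246 for NSun6 (SD, n = 3), a difference of 0.00815 percentage points (exact two-sided permutation test, p = 0.1, the smallest that 3 libraries against 3 allow). Of the 3 NSun3 reads, 2 lay in the same nearly complete cluster, within a nuclear copy of mtDNA. In that kind the mean share was higher for NSun3, at 0.000769% ± 0.00133 against 7.75e-05% ± 0.000134 (SD, n = 3), and with mtDNA-like clusters left out the difference over all kinds was 0.00892 percentage points. A count of 0 of 34794 still allows a share of 0.0106% (upper end of the 95% exact interval), so the depth of the NSun3 libraries limits the comparison.

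Both enzymes also differed in how many reads fell in transcribed regions with bisulfite coverage. These regions took 5.93% to 11% of nuclear NSun3 reads and 41.0% to 43.3% of nuclear NSun6 reads, and the clusters made up 0.191% of their length. Taken per read in the covered regions the difference was 0.0118 percentage points (exact permutation p = 0.4), and the libraries overlapped. NSun3 replicate 1 then had the highest share, with 3 cluster reads to 9557 in these regions. The NSun6 replicates had 30 to 120112, 28 to 186065 and 31 to 115451, and the other NSun3 libraries had 0. Of the nuclear sites with over 50 RPM (reads relative to library size) in at least 2 of 3 replicates, 0 of 549 for NSun3 and 0 of 1922 for NSun6 lay in a cluster. With clusters at 0.191% of the covered length, that share leaves few or no sites, so a count of 0 is not a result about either enzyme. A truncation was found in 2 clusters for NSun3 and 18 for NSun6, and 2 of the 18 had it in more than 1 library. One of these, in the 3′ UTR of ELAVL1, an RNA-stability factor, took 31 of the NSun6 reads over 3 libraries, and without it the difference was 0.00492 percentage points. The other, in the 3′ UTR of DESI1, a desumoylating peptidase, took 6 reads in 2 libraries.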

How the data were processed

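HEK293 poly(A) RNA was converted with a bisulfite RNA kit and sequenced, and the authors deposited, per cytosine, the percent methylated and the counts of methylated and of unmethylated reads, as a single table covering 2 samples. The submitters' processing notes name Bismark, Bowtie, hg19 and GRCh37; alignment was non-directional. Per the study's methods levels were computed both with and without potential PCR duplicates. Which of these the deposited table holds, and whether samples were pooled, is not given in the sources used here, so reads may not be independent molecules. For miCLIP the authors collapsed random barcodes, aligned with bowtie and deposited counts of reads per truncation position, with no strand column, in 1 file per library. Groups came from the sample labels, and 0 columns of other samples were found. The deposited percent was not used, and levels were recomputed from the counts.

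Of 76013928 listed cytosines, 76007404 were nuclear. Strand was taken from the hg19 base. Cytosines with at least 20 reads were called unconverted at 20%, joined at 20 nt on a strand and kept in groups of at least 5. Levels are read-weighted. Annotation was GENCODE release 44 lifted to this build, exon before intron and own strand first. 7SL-like stretches were BLAST+ 2.17.0 matches to RN7SL2 (e-value 0.001). Nearly complete means at least 90%, and ribosomal DNA matches had at least 95% identity over 60 nt. Folds were minimum free energy structures (ViennaRNA 2.7.2) of 200 nt of genomic sequence on the cluster's strand, with no splicing and no proteins. Intervals are 95% Clopper-Pearson. Python 3.11.15, numpy 2.4.6, pandas 2.3.3, scipy 1.17.1 and matplotlib 3.10.9 were used, and the clustering step was tested on simulated data. The only test was an exact two-sided permutation of 3 miCLIP libraries against 3. Nothing says that replicates came from separate cultures, so this p covers only the spread between libraries. A separate-library analysis of bisulfite levels was not possible.

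Clusters were named by rule: the 10 with the most cytosines, the 10 with the most reads, the 5 with the highest level among those of at least 8 cytosines, and in each gene list the one with the most cytosines. Some clusters and sequences that this rule names are not reported here. Members and lists were chosen with earlier results of these data known, and the 4 kinds, the 7SL comparison, the folds and further examples were chosen after the data were seen. Alternatives for coverage, level, distance, size, fold window, strand, margin, denominator and left-out libraries were run.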

Additional observations from a re-analysis of the deposited data

How the results depend on the processing

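The number of clusters, 1706, depended on the limits of the rule. It was 4984 with at least 10 reads, 471 with at least 50, 3718 at a level of at least 10%, 336 at 50%, and 388 with at least 10 cytosines, while 10 or 50 nt as the distance, 3 cytosines as the minimum and leaving out nuclear copies of mtDNA kept it between 1646 and 2333. The share of unconverted cytosines in clusters, 75.9%, became 74.7% with at least 10 reads, 69.8% at a level of 50%, 70.4% and 79.2% with distances of 10 and 50 nt, and 87.6% and 28.8% with minimums of 3 and 10 cytosines. The nearly complete clusters numbered 53 and between 23 (at least 50 reads) and 110 (at least 10 reads) under the alternatives. The excess of pairing among clustered cytosines of the partial clusters, 8.48 percentage points with windows of 200 nt, was 10.6 with 100 nt, 8.17 with 400 nt and 7.89 in windows inside 1 exon or outside exons, and in the clusters with no 7SL-like stretch it was 21.8 to 23.9. The cause of these changes was not tested. The fold windows and the reach for opposite copies were chosen after seeing the data.

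The difference between NSun6 and NSun3 in nuclear reads at clusters was above 0 in 17 of 17 alternatives. These alternatives share most of their reads, and some could not change the sign. The block by replicate number reuses the same shares, and without NSun3 replicate 1 the other NSun3 shares are 0. None of the 17 could pass 0.05 with 3 libraries against 3. Leaving out each library in turn gave 0.00722 to 0.00954 percentage points. It was 0.0477 with a margin of 20 nt, 0.00384 with each position counted once (exact permutation p = 1), 0.00158 for clusters of at least 10 cytosines (exact permutation p = 0.3) and 0.00492 without the ELAVL1 cluster, which was left out after seeing the data. The enzymes share replicate numbers, but nothing says that a number marks a shared culture or day, and same-numbered libraries deviated from their group means in the same direction in 2 of 3 pairs. With the replicate number as a block the difference was 0.00815, with an exact permutation p of 0.25, the smallest that 3 pairs allow.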
